A study of Homo sapiens with 10 samples.

Results

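The genes described here encode the enzymes that digest material inside lysosomes, the membrane proteins of the organelle and the proton pump that acidifies it. They were taken as a list of 43 gene symbols, and every probe set whose platform annotation gave exactly 1 of these symbols was a member. Of the 43 genes, 42 were on the array in this way, with 83 probe sets, out of 11963 genes on the array with such a probe set. GLB1 had only a probe set that it shares with TMPPE and was not measured as a member. A probe set was kept where its value reached 7.3 on the log2 scale on at least 2 arrays, which held for 10176 of 22215 probe sets. Among the members 67 probe sets of 40 genes were kept and 16 were not. CTSK, a collagen-degrading cathepsin, and ARSB, a sulfatase of dermatan sulfate, had no kept probe set.

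RNA of MDA-MB-435, an established human melanoma cell line, was hybridised to 10 Affymetrix hgu133a arrays in 5 groups of 2. The groups were cells transduced with integrin Beta4 (ITGB4), untreated cells, and cells treated with hepatocyte growth factor (HGF), the ligand of the receptor MET, for 1, 6 and 24 h. All groups are of the same line, and HGF-treated and transduced cells were each set against the same untreated arrays. No untreated array carries a time label, so HGF and time in culture or handling cannot be told apart. The design text calls the arrays of a group biological duplicates. Labels of the transduced samples also contain the word Mock, and no group of mock-transduced cells was among the arrays, so transduction itself and ITGB4 cannot be told apart. The vector and the promoter that drove ITGB4 were not given in the sources used here.

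Lysosomal hydrolases are made in the endoplasmic reticulum, tagged with mannose 6-phosphate in the Golgi apparatus and delivered through endosomes to lysosomes, where they work at acidic pH. The V-ATPase keeps this pH: its cytosolic V1 sector hydrolyses ATP and its membrane V0 sector carries protons. Transcription factors of the MiT family (TFEB, TFE3, TFEC and MITF) bind E-boxes in promoters of many such genes, and in pigment cells MITF also drives genes of the melanosome, an organelle related to the lysosome.

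The letters to which these factors are known to bind were searched for in promoters from RefSeq (GRCh38.p14), each from 250 bases before to 50 bases after an annotated start. Of the 43 genes, 30 matched an entry, with 44 promoters in all. The extended E-box TCACGTG, read on both strands, was in 25.0% of the member promoters (11, of 10 genes) and in 3.711% of all 35116 promoters of that length. The core CACGTG, which the extended form contains, was in 27.3% and 7.256%, and the palindrome TCACGTGA, which contains both, in 18.2% and 0.98%. The M-box TCATGTG, another MITF site, was in 11.4% of member promoters (5 genes) and in 2.922% of all promoters. These are matches of letters, and binding was not measured. The stretches below show the extended E-box, in capitals on either strand, for member genes with a kept probe set and a match before the start. ARSB also held a match and had no kept probe set, so it is not shown. For each gene 40 bases around a match, which need not be its only match, are printed 5′ to 3′ on the strand of the gene.

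CTSD, chr11:1763951-1763990, minus strand: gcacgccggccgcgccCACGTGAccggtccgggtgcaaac
CTSA, chr20:45891276-45891315, plus strand: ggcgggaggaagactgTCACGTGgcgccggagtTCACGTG
NEU1, chr6:31862925-31862964, minus strand: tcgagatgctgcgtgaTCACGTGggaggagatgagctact
GAA, chr17:80101488-80101527, plus strand: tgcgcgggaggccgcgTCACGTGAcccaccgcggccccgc
CLN3, chr16:28492081-28492120, minus strand: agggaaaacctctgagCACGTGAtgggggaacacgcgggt
MCOLN1, chr19:7522566-7522605, plus strand: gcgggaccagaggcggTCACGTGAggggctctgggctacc
ATP6V0D1, chr16:67481194-67481233, minus strand: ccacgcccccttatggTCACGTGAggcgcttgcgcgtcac
ATP6V1G1, chr9:114587694-114587733, plus strand: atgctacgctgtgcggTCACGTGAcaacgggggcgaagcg

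LAMP1, which encodes an abundant glycoprotein of the lysosomal membrane, held 6 copies of the core, and its 250 bases before the start are printed whole because the copies are spread along them. SMPD1, which encodes acid sphingomyelinase, is printed for contrast: it was the hydrolase with the largest difference between HGF time points and held neither motif. The last capitals of the LAMP1 stretch begin a match that runs past the start.

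LAMP1, chr13:113296989-113297238, plus strand: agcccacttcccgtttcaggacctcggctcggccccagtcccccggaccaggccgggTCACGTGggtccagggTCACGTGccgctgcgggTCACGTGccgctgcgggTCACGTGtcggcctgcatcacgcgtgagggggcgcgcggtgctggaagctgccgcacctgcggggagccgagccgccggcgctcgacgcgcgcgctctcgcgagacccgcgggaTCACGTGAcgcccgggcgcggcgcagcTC
SMPD1, chr11:6390224-6390473, plus strand: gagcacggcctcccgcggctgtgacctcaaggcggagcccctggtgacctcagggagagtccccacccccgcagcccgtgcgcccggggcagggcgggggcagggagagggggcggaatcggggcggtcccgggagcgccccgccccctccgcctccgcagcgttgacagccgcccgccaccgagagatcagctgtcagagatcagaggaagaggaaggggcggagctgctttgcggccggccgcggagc

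The M-box stretches are given for the genes with a called difference that held it, with the M-box on either strand in capitals.

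SCARB2, chr4:76213914-76213953, minus strand: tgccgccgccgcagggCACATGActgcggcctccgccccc
TPP1, chr11:6619420-6619459, minus strand: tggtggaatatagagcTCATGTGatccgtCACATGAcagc

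**Figure D1:**
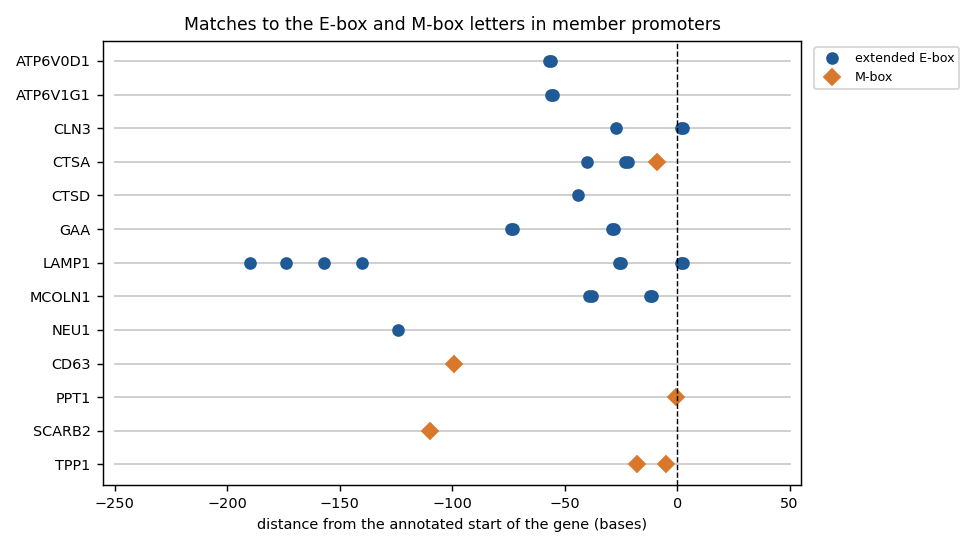
Positions of the extended E-box (blue circles) and the M-box (orange diamonds) in promoters of member genes with a kept probe set, in bases from the annotated start (dashed line). The LAMP1 row holds the most circles, and TPP1 has its M-boxes within the last bases before the start.

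Differences are given on the log2 scale between group means of 2 arrays each, with the standard error (SE) and adjusted p of limma. The spread was pooled over the 5 groups. A difference of 1 is a 2-fold change. An adjusted p under 0.05 made a call, and only a called probe set is said to rise or fall. Values of different probe sets are not compared with each other as levels. In RNA of whole cultures, a changed share of cells and a changed amount of RNA per cell cannot be told apart.

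Array medians lay between 6.81 and 6.88. The highest ITGB4 probe set was at 13.23 and 12.96 in transduced cells and at 6.70 and 6.58 in untreated cells, and it lay between 6.54 and 6.86 in HGF-treated cells. Of 14 melanocyte markers, 12 were kept. The median over all 14, each at its highest probe set mean in a group, lay between 10.93 and 11.40 in the 5 groups. Of the markers of other cells, 3 of 12 were kept for epithelium, 3 of 10 for fibroblasts and 1 of 9 for macrophages. Among these, the epithelial splicing factor ESRP1 rose by 0.76 (adjusted p = 0.0153) and the fibroblast proteoglycan DCN fell by 0.39 (adjusted p = 0.0414) after 6 h compared with 1 h of HGF. ESRP1, which was under the filter level at 1 h (6.86) and 24 h (7.01), fell by 0.62 (adjusted p = 0.0305) and the epithelial keratin KRT18 by 0.52 (adjusted p = 0.0463) after 24 h compared with 6 h, and the part of these markers in the members' differences was not tested. Members differed more between the 2 arrays after 1 h with HGF than in any other group, with an SD of 0.265 against 0.144 to 0.198 in the others, and the members' median was 0.16 higher on replicate 1 than on replicate 2 at 1 h.

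Most calls among the members were between HGF time points. After 6 h with HGF compared with 1 h, 10 of 67 member probe sets (7 genes) fell and 3 (2 genes) rose, where 6.40% of all kept probe sets fell and 11.9% rose (18.3% in either direction). The members' shares were 14.9% lower and 4.48% higher, so that the total of 19.4% was near that of all probe sets. The 10 that fell were all soluble hydrolases or activators, and the 3 that rose were all of the V1 sector. After 24 h compared with 6 h, 8 member probe sets (6 genes) rose and 3 (2 genes) fell, where 6.95% of all kept probe sets rose and 12.5% fell (19.5% in either direction). The members' shares were 11.9% higher and 4.48% lower, and 16.4% in all. The comparisons share the arrays at 6 h, so that a value at 6 h enters both.

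Fewer members differed from untreated cells. After 1 h, 1 member probe set rose and 2 fell, where 0.580% of all kept probe sets rose and 5.09% fell (5.67% in either direction). After 6 h, 0 rose and 1 fell, where 3.88% rose and 2.33% fell (6.21%). After 24 h limma called 0 of all kept probe sets (0%), with 1134 at an unadjusted p under 0.05, of which 5 were members. Between 24 h and 1 h it called 0 members and 0.00983% of all, with 8 of 67 members and 1492 of all 10176 probe sets at an unadjusted p under 0.05. In transduced compared with untreated cells it called 0 members and 0.0491% of all, with 4 of 67 members and 618 of all 10176 at an unadjusted p under 0.05.

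The soluble hydrolases and their activators, 41 kept probe sets of 23 genes, mostly shared a direction. Their median difference from untreated cells was 0.19 after 1 h, -0.12 after 6 h and 0.09 after 24 h, beside 0.056, 0.012 and 0.0031 for all kept probe sets. Between 6 h and 1 h the median was -0.32 and 37 of 41 were negative, beside -0.018 for all kept probe sets. Between 24 h and 6 h it was 0.22 and 34 of 41 were positive, beside -0.011. On single arrays the median from the untreated mean was 0.28 and 0.08 after 1 h, -0.09 and -0.18 after 6 h and 0.09 and 0.08 after 24 h. Both arrays at 1 h lay above both at 6 h, and replicate 1 at 1 h was the highest.

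**Figure D2:**
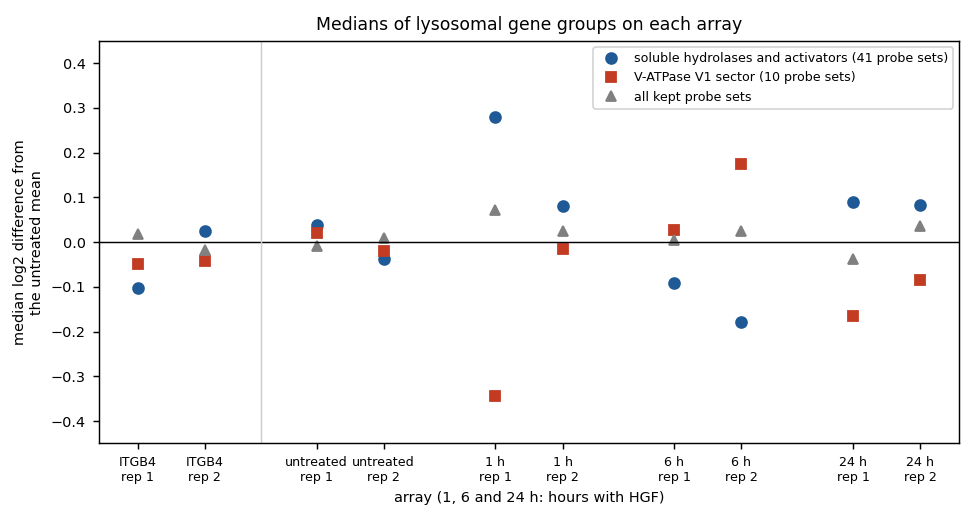
Median log2 difference from the untreated mean on each of the 10 arrays, for soluble hydrolases and activators (blue circles), the V-ATPase V1 sector (red squares) and all kept probe sets (grey triangles). The circles stand at 0.28 and 0.08 at 1 h and at -0.09 and -0.18 at 6 h, and the squares at -0.34 and -0.02 at 1 h and at 0.03 and 0.17 at 6 h.

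Among the hydrolases of lipids, thioesters and phosphates and the lipid activators, 6 genes in all, all 12 kept probe sets were negative between 6 h and 1 h and all 12 positive between 24 h and 6 h. Of these probe sets 5 are of GM2A. SMPD1, acid sphingomyelinase, which cleaves sphingomyelin to ceramide, was at 8.95 and 9.08 in untreated cells, 9.67 and 9.39 after 1 h, 8.93 and 8.60 after 6 h and 9.21 and 9.41 after 24 h (probe set 209420_s_at). Both arrays at 6 h lay below all arrays at 1 and 24 h. SMPD1 fell by 0.77 between 6 h and 1 h (SE 0.16, adjusted p = 0.0106), a 1.70-fold lower value, and rose by 0.55 between 24 h and 6 h (SE 0.16, adjusted p = 0.0335). On its other kept probe set, 216230_x_at, neither difference was called. The means there were 9.03 after 1 h, 8.63 after 6 h and 9.04 after 24 h.

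GM2A, the activator that presents GM2 ganglioside to beta-hexosaminidase, was at 8.68 and 8.40 in untreated cells, 8.88 and 8.65 after 1 h, 8.11 and 8.16 after 6 h and 8.62 and 8.54 after 24 h (209727_at). It fell by 0.63 between 6 h and 1 h (SE 0.13, adjusted p = 0.0122) and rose by 0.44 between 24 h and 6 h (SE 0.13, adjusted p = 0.0411). GM2A was called in the same direction on 3 of its 5 kept probe sets in the comparison of 6 h with 1 h, and all 5 differences were negative. Of the 5, only 209727_at was called between 24 h and 6 h, where all 5 differences were positive. The other genes of this group were not called in any comparison: PSAP, the precursor of the saposins, LIPA, the lysosomal acid lipase, PPT1, which removes palmitate from proteins, and ACP2, an acid phosphatase.

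The sulfatases and glycosidases strip sulfate and sugar groups from glycosaminoglycans, glycoproteins and glycolipids. SGSH, the sulfamidase of heparan sulfate breakdown, was at 10.53 and 10.45 in untreated cells, 10.76 and 10.59 after 1 h, 10.08 and 10.04 after 6 h and 10.78 and 10.77 after 24 h (35626_at). The arrays at 6 h were the lowest of all 10 arrays. SGSH fell by 0.61 between 6 h and 1 h (SE 0.12, adjusted p = 0.0102) and rose by 0.71 between 24 h and 6 h (SE 0.12, adjusted p = 0.00424). On its other kept probe set, 204293_at, it rose by 0.55 between 24 h and 6 h (adjusted p = 0.0222). The difference between 6 h and 1 h on 204293_at, with means of 8.05 and 8.50, was not called. Against untreated cells the difference of SGSH at 6 h was -0.42 on 35626_at (adjusted p = 0.0638).

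NAGLU, which removes N-acetylglucosamine in the same pathway, was at 8.52 and 8.54 in untreated cells, 9.11 and 8.82 after 1 h, 8.41 and 8.48 after 6 h and 8.76 and 8.95 after 24 h (204360_s_at). It fell by 0.52 between 6 h and 1 h (SE 0.14, adjusted p = 0.0261), and its difference of 0.41 between 24 h and 6 h was not called. The largest positive differences of members between 24 h and untreated cells were 0.33 for SGSH on 204293_at (adjusted p = 0.424) and 0.33 for NAGLU (adjusted p = 0.414). HEXA, the alpha chain of beta-hexosaminidase A, fell by 0.51 (adjusted p = 0.0325) and GUSB, the beta-glucuronidase, by 0.44 (adjusted p = 0.0274) between 6 h and 1 h. The HEXA values were 10.28 and 10.04 after 6 h against 10.86 and 10.49 after 1 h, with the untreated arrays between them at 10.48 and 10.36.

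GLA, the alpha-galactosidase that cleaves globotriaosylceramide, ran the other way between 24 h and 6 h. It was at 10.52 and 10.26 in untreated cells, 10.82 and 10.60 after 1 h, 10.71 and 10.82 after 6 h and 10.20 and 10.43 after 24 h (214430_at). GLA fell by 0.45 between 24 h and 6 h (SE 0.14, adjusted p = 0.0489), the only soluble hydrolase called lower there. It was not called there without a filter or after median centring. Its difference of 0.38 between 6 h and untreated cells was not called (adjusted p = 0.138). GAA, the acid alpha-glucosidase, NEU1, the sialidase, the mannosidases MAN2B1 and MANBA, and the sulfatases ARSA and IDS were not called in any comparison.

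Among the peptidases, CTSD was the member called higher after 1 h. CTSD, the main aspartic protease of lysosomes, was at 9.67 and 9.47 in untreated cells, 10.13 and 10.00 after 1 h, 9.82 and 9.68 after 6 h and 9.80 and 9.81 after 24 h (200766_at). It rose by 0.49 between 1 h and untreated cells (SE 0.12, adjusted p = 0.0428), a 1.41-fold higher value, and was not called after median centring or cyclic loess. With either untreated array, replicate 1 of the 1 h group, or any single array at 6 or 24 h left out, its adjusted p lay between 0.0517 and 0.259.

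TPP1, a tripeptidyl peptidase, had 4 kept probe sets, all negative between 6 h and 1 h and all positive between 24 h and 6 h. It was at 11.30 and 11.20 in untreated cells, 11.42 and 11.29 after 1 h, 10.96 and 10.76 after 6 h and 11.38 and 11.26 after 24 h (200742_s_at). TPP1 fell by 0.50 between 6 h and 1 h (SE 0.12, adjusted p = 0.0204) and rose by 0.47 between 24 h and 6 h (SE 0.12, adjusted p = 0.0242), and 214196_s_at was called in the same directions. The protective protein CTSA and the cysteine proteases CTSB, CTSL and CTSZ were not called in any comparison. CTSZ was among the largest differences at 6 h, with 0.36 from untreated cells on 210042_s_at (adjusted p = 0.227). On its other kept probe set, 212562_s_at, the difference was -0.027.

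**Figure D3:**
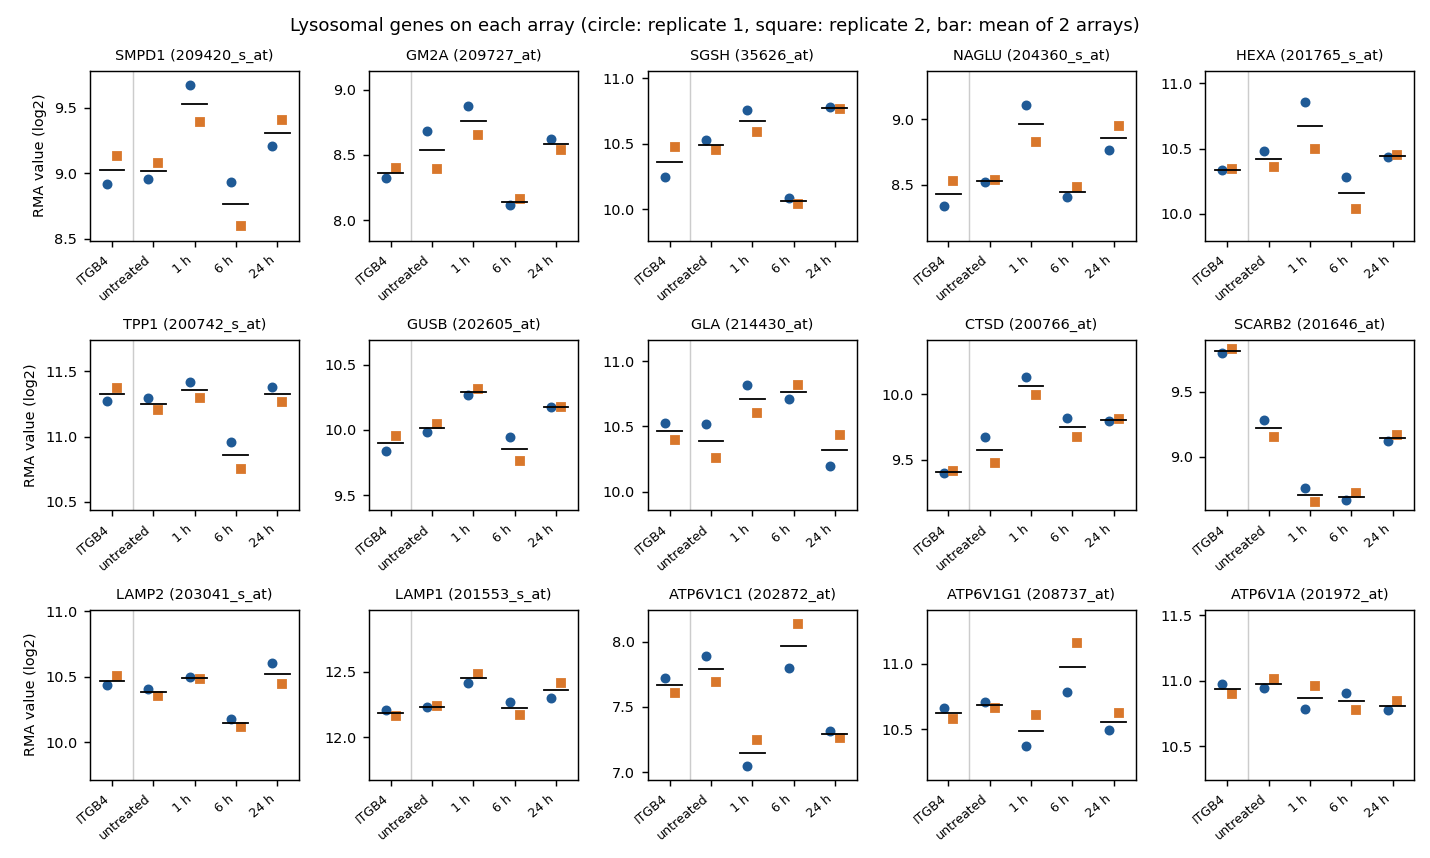
RMA values (log2) of 15 member probe sets on each array, for the transduced, the untreated and the HGF-treated groups (1, 6 and 24 h), with a circle for replicate 1, a square for replicate 2 and a bar for the mean of 2 arrays. SMPD1, GM2A, SGSH, TPP1 and HEXA have their lowest bar at 6 h, while ATP6V1C1 and ATP6V1G1 have their highest bar there. Axes differ between panels and do not start at 0.

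SCARB2 was the only member called against untreated cells at 2 times. SCARB2, also called LIMP-2, is a membrane protein that carries glucocerebrosidase to lysosomes. It was at 9.29 and 9.15 in untreated cells, 8.76 and 8.66 after 1 h, 8.67 and 8.72 after 6 h and 9.12 and 9.16 after 24 h (201646_at). Compared with untreated cells it fell by 0.51 after 1 h (SE 0.11, adjusted p = 0.0311) and by 0.52 after 6 h (SE 0.11, adjusted p = 0.0249), a 1.44-fold lower value. It rose by 0.45 between 24 h and 6 h (SE 0.11, adjusted p = 0.0199). On its other kept probe set, 201647_s_at, the differences from untreated cells were -0.23 after 1 h and -0.34 after 6 h, neither of them called.

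In transduced cells the largest difference among the members was also that of SCARB2, in the opposite direction. Its values were 9.80 and 9.83 in transduced cells against 9.29 and 9.15 in untreated cells on 201646_at, and 9.00 and 9.01 against 8.42 and 8.25 on 201647_s_at. All 4 transduced values lay above all untreated values of their probe set. The differences were 0.59 (SE 0.11, adjusted p = 0.121) and 0.67 (SE 0.12, adjusted p = 0.114, a 1.59-fold higher value), so that neither was called. With p-values adjusted over the 4 comparisons with untreated cells together, both were called. The next largest were TPP1 with 0.46 (214196_s_at, adjusted p = 0.543), ATP6V1H with -0.29 (adjusted p = 0.772) and GAA with -0.26 (adjusted p = 0.985), and the groups overlapped for GAA. On 200742_s_at the transduced and untreated means of TPP1 were 11.32 and 11.25, on 200743_s_at 11.36 and 11.40 and on 214195_at 7.38 and 7.20. The medians over the soluble hydrolases were -0.10 and 0.03 on the transduced arrays and 0.04 and -0.04 on the untreated arrays.

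LAMP2, the lysosomal membrane glycoprotein of chaperone-mediated autophagy, was at 10.41 and 10.35 in untreated cells, 10.50 and 10.48 after 1 h, 10.18 and 10.12 after 6 h and 10.61 and 10.44 after 24 h (203041_s_at). On this probe set it rose by 0.38 between 24 h and 6 h (SE 0.11, adjusted p = 0.0415). The call was lost without a filter, after median centring and with the 2 compared groups alone. Its other kept probe sets were not called there. Their means after 6 h and 24 h were 7.47 and 7.29 on 200821_at, the other way, and 8.04 and 8.37 on 203042_at. LAMP1 was at 12.23 and 12.24 in untreated cells, 12.42 and 12.49 after 1 h, 12.27 and 12.17 after 6 h and 12.30 and 12.42 after 24 h (201553_s_at). Its difference after 1 h was 0.22 (95% interval -0.030 to 0.466), with 0.40 and 0.33 on its other kept probe sets, and none was called. CD63, a tetraspanin of late endosomes, was at 13.12 and 12.97 in untreated cells, 13.24 and 13.08 after 1 h, 13.16 and 13.09 after 6 h and 12.99 and 12.90 after 24 h, and its values overlapped with those of untreated cells at all 3 times.

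MCOLN1, a cation channel of the lysosomal membrane, had the largest positive difference of any member after 1 h and was not called. It was at 9.26 and 9.33 in untreated cells, 9.98 and 9.70 after 1 h, 9.52 and 9.54 after 6 h and 9.09 and 9.45 after 24 h (219952_s_at), and its difference after 1 h was 0.55 (SE 0.14, adjusted p = 0.0519). It was called there under the stricter filter, cyclic loess, the trended and robust prior and the replicate block, and with either ITGB4 array, either array at 24 h or replicate 2 at 1 h left out. CLN3, a membrane protein mutated in Batten disease, had differences of 0.39 and 0.42 after 1 h on its 2 kept probe sets (adjusted p = 0.0805 and 0.0921) and was called there with the replicate block. NPC1 and NPC2, which export cholesterol from lysosomes, were not called in any comparison in the fit across all 10 arrays.

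The V1 sector of the V-ATPase had medians of the opposite sign to the hydrolases at each time. Its 10 kept probe sets of 7 genes had a median of -0.15 after 1 h, 0.08 after 6 h and -0.13 after 24 h compared with untreated cells. Between 6 h and 1 h the median was 0.26, with 6 of 10 positive, and between 24 h and 6 h it was -0.23, with 9 of 10 negative. The other 2 pump probe sets, of ATP6V0D1 and ATP6AP1, had medians from untreated cells of 0.24, 0.038 and 0.065 at these times. Their median was -0.20 between 6 h and 1 h and 0.028 between 24 h and 6 h. ATP6V1C1, subunit C, which helps hold V1 to the membrane sector, was at 7.89 and 7.69 in untreated cells, 7.05 and 7.25 after 1 h, 7.80 and 8.14 after 6 h and 7.32 and 7.26 after 24 h (202872_at). The arrays at 1 h lay below the filter level of 7.3, and so did 1 of the arrays at 24 h, so that the size of its differences is less exact.

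ATP6V1C1 fell by 0.64 between 1 h and untreated cells (SE 0.14, adjusted p = 0.0316), rose by 0.82 between 6 h and 1 h (SE 0.14, adjusted p = 0.00671) and fell by 0.68 between 24 h and 6 h (SE 0.14, adjusted p = 0.00977). On 202874_s_at, whose values lay between 8.73 and 9.80, it rose by 0.65 between 6 h and 1 h (adjusted p = 0.0311) and fell by 0.65 between 24 h and 6 h (adjusted p = 0.0285). Its difference there between 1 h and untreated cells was -0.58 (adjusted p = 0.0793), which was not called. Between 24 h and untreated cells the difference there was -0.58 (adjusted p = 0.361). ATP6V1G1, a stator subunit, was at 10.71 and 10.66 in untreated cells, 10.37 and 10.61 after 1 h, 10.79 and 11.16 after 6 h and 10.49 and 10.62 after 24 h (208737_at). It rose by 0.48 between 6 h and 1 h (SE 0.15, adjusted p = 0.0439).

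ATP6V1A, the catalytic subunit, was at 10.94 and 11.01 in untreated cells, 10.78 and 10.96 after 1 h, 10.91 and 10.78 after 6 h and 10.78 and 10.84 after 24 h (201972_at). None of its differences was called on either kept probe set. After 24 h its difference from untreated cells was -0.17 on this probe set (95% interval -0.430 to 0.093). On 201971_s_at it was -0.41 (95% interval -0.975 to 0.165, adjusted p = 0.559), with 8.95 and 9.60 after 24 h against 9.85 and 9.51 in untreated cells, which overlapped. The subunits ATP6V1B2, ATP6V1D, ATP6V1E1 and ATP6V1H, the V0 subunit ATP6V0D1 and the accessory protein ATP6AP1 were not called in any comparison. ATP6V1D, a subunit of the central rotor, had differences of 0.40 and 0.41 between 6 h and 1 h on its 2 kept probe sets.

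**Figure D4:**
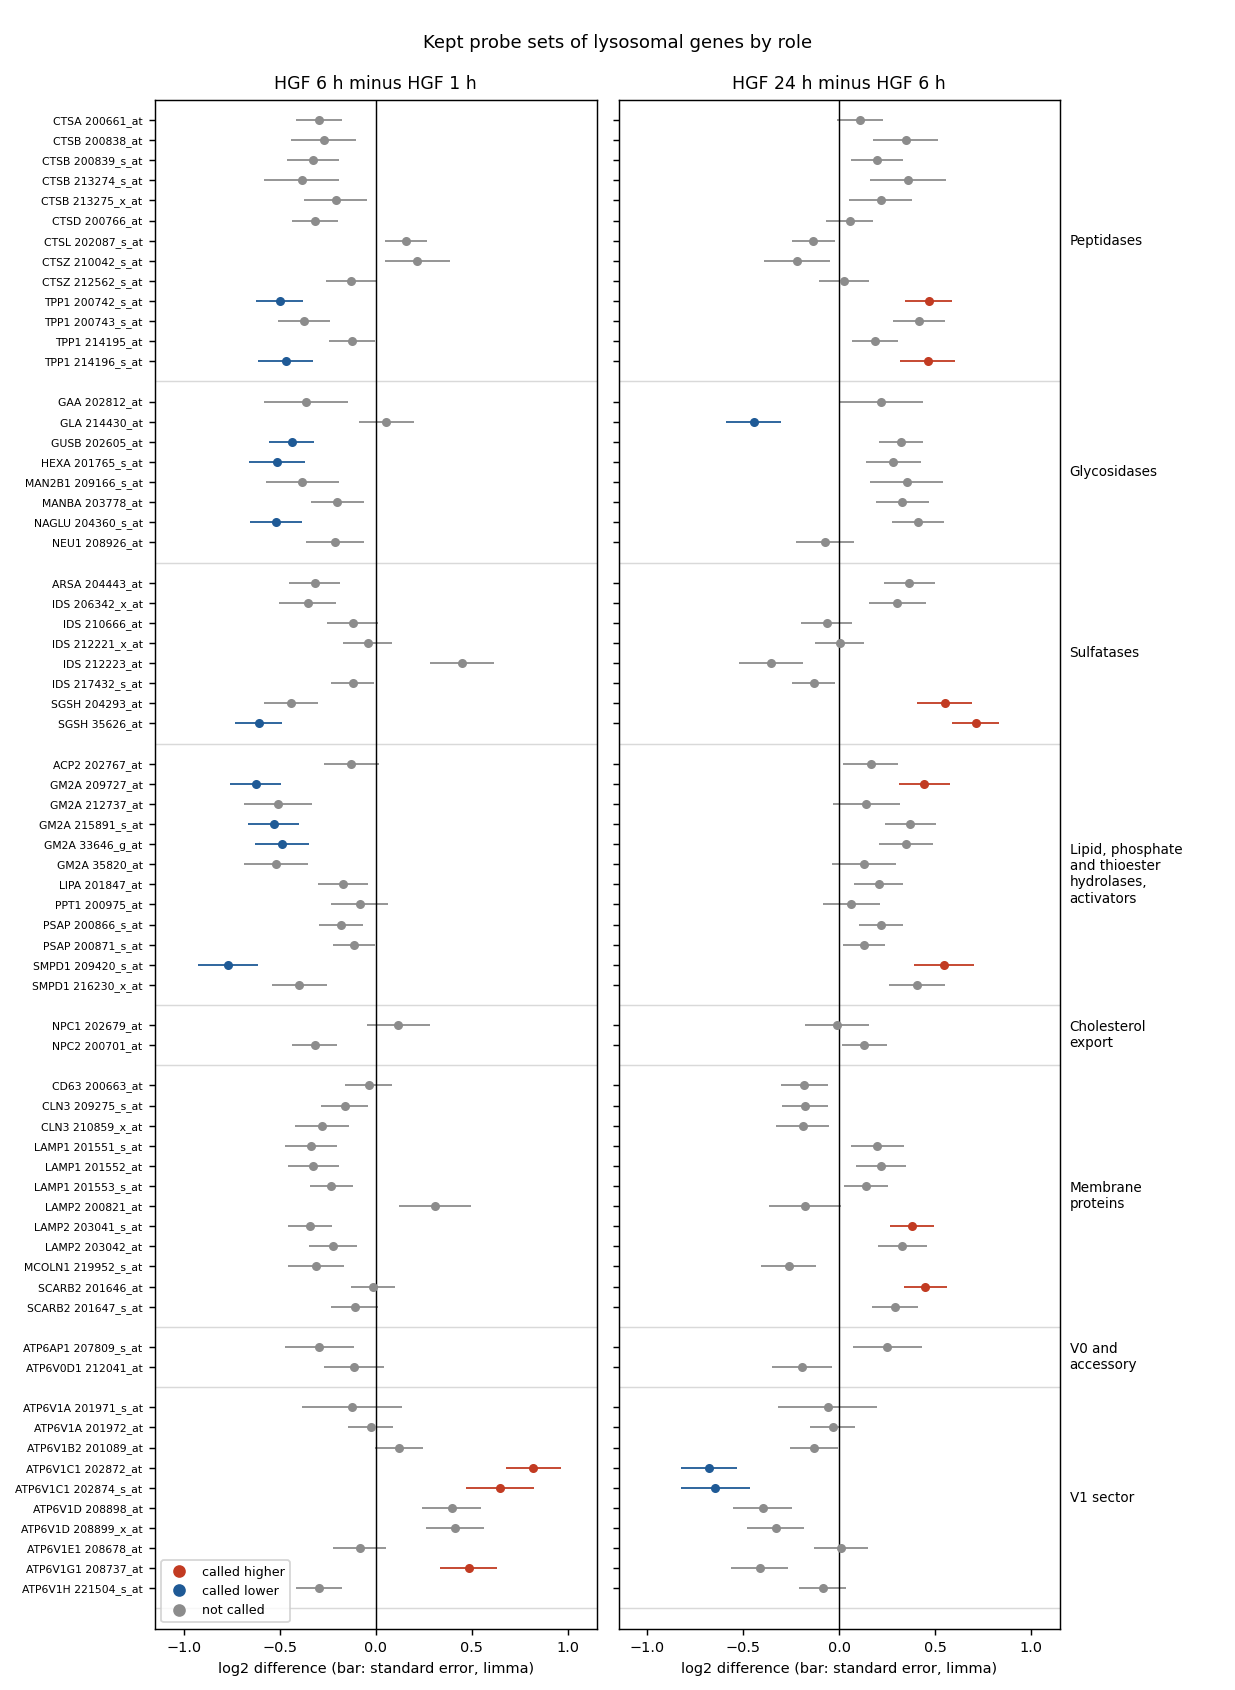
Log2 differences of the 67 kept member probe sets by role, for HGF 6 h minus 1 h (left) and HGF 24 h minus 6 h (right), with the SE of limma as the bar and called probe sets in colour. At the left 10 hydrolase or activator probe sets are lower and 3 V1 probe sets higher, and at the right 8 probe sets are higher and 3 lower.

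The counts of calls depended on single arrays, among the members and over all kept probe sets. In each fit given here where the members' count fell, the share of all kept probe sets called fell too. Between 6 h and 1 h the 13 member calls became 0 when HGF 1 h replicate 1 was left out and 20 when replicate 2 of that group was. They became 2 when HGF 6 h replicate 1 was left out and 0 when replicate 2 was. Over all kept probe sets the share called was then 3.14%, 17.6%, 3.65% and 1.98%. Between 24 h and 6 h the 11 member calls became 3 and 1 without HGF 6 h replicate 1 and 2, and 2 and 4 without HGF 24 h replicate 1 and 2. SGSH on 35626_at was called in each of these (adjusted p = 0.0474 without HGF 6 h replicate 2). Between 1 h and untreated cells the 3 calls became 0 when either untreated array or replicate 1 of the 1 h group was left out, 1 when either array at 6 h was, and 8 when replicate 2 of the 1 h group was. The call of SCARB2 at 6 h was lost without either untreated array or either array at 6 h, with an adjusted p between 0.117 and 0.191, and without either ITGB4 array SGSH was called lower beside it.

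Other genes of the pathway were read from lists that do not contain the members. Of 19 other lysosomal hydrolases and cofactors on the array 14 were kept. Between 6 h and 1 h 3 of these genes fell and 0 rose, namely DNASE2, the lysosomal DNase, by 0.70 (adjusted p = 0.00865), CTSF, a cathepsin, by 0.73 and SCPEP1, a serine carboxypeptidase, by 0.55. DNASE2 and CTSF rose by 0.66 and 0.68 between 24 h and 6 h. The list's median was -0.24 between 6 h and 1 h. Of 10 other V-ATPase subunits 8 were kept, and 1 of them, ATP6V0A2, fell by 0.51 between 24 h and 6 h (adjusted p = 0.0344), to a mean of 7.17 at 24 h, which is under the filter level. Medians of these subunits from untreated cells were 0.18 after 1 h, 0.14 after 6 h and -0.019 after 24 h. Between 6 h and 1 h their median was -0.062, and between 24 h and 6 h it was -0.14.

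Of 11 other lysosomal membrane proteins 9 were kept. CD164, a sialomucin, fell by 0.74 after 1 h compared with untreated cells and rose on 3 probe sets between 6 h and 1 h, by 0.78 on 208654_s_at. ABCB9, a peptide transporter, rose by 0.72 after 6 h compared with untreated cells (adjusted p = 0.0124), where its untreated mean of 7.29 was under the filter level, and SIDT2 rose by 0.80 between 24 h and 6 h on 56256_at. All 19 genes of sorting and delivery were kept. GNPTAB, which makes the mannose 6-phosphate tag, fell by 0.80 after 1 h compared with untreated cells (adjusted p = 0.0347), and M6PR, a receptor of the tag, fell by 0.69 between 24 h and 6 h (adjusted p = 0.0188). VPS11 fell by 0.58 between 6 h and 1 h (adjusted p = 0.0179) and rose by 0.48 between 24 h and 6 h (adjusted p = 0.0343).

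Of 12 regulators of lysosomal genes and mTORC1 docking 9 were kept. LAMTOR3, a subunit of the Ragulator scaffold on lysosomes, fell by 1.08 after 1 h compared with untreated cells (SE 0.12, adjusted p = 0.0082) and rose by 1.10 between 6 h and 1 h (adjusted p = 0.00187). Its mean at 1 h was 6.98, under the filter level, so that these sizes are less exact. MITF was at 11.16 and 11.19 in untreated cells, 10.65 and 10.77 after 1 h, 10.47 and 10.26 after 6 h and 11.01 and 10.63 after 24 h. MITF fell by 0.81 after 6 h compared with untreated cells (SE 0.14, adjusted p = 0.0126) and rose by 0.46 between 24 h and 6 h (adjusted p = 0.0461), and was at 11.15 and 11.20 in transduced cells. TFEB (221866_at) was at 7.95 and 7.69 in untreated cells, 8.01 and 7.99 after 1 h, 7.64 and 7.51 after 6 h and 7.87 and 7.83 after 24 h, and neither TFEB nor TFE3 was called. Compared with untreated cells, 2 more melanocyte markers fell after 6 h: TYR, the tyrosinase of pigment synthesis, by 0.48 and RAB27A, which moves melanosomes, by 0.86 on 222294_s_at, and RAB27A also after 1 h. The median of the marker list was 11.01 after 6 h and 11.18 in untreated cells, and the part of these markers in the members' differences was not tested.

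The members were also grouped by motif, with a gene read on whichever kept probe set was brightest on average. For 9 genes with the extended E-box the median difference from untreated cells was 0.27 after 1 h, with 8 of 9 positive, and for 19 genes without it 0.13, with 14 of 19 positive. With and without it the medians were 0.16 and -0.071 after 6 h and 0.045 and 0.050 after 24 h. Between 6 h and 1 h they were -0.23 and -0.13, and between 24 h and 6 h -0.073 and 0.14. For 5 genes with the M-box and 23 without it the medians from untreated cells were 0.0062 and 0.26 after 1 h, -0.12 and 0.040 after 6 h and -0.054 and 0.093 after 24 h. They were -0.084 and -0.21 between 6 h and 1 h, and 0.11 and 0.055 between 24 h and 6 h. No test was made of these groups. Of the called genes with a promoter entry, CTSD and ATP6V1G1 held the extended E-box, SCARB2 and TPP1 the M-box, and GLA, GM2A, GUSB and SMPD1 neither. No entry was matched for ATP6V1C1, HEXA, LAMP2, NAGLU and SGSH.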

How the data were processed

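The deposited values of the 10 arrays are on the log2 scale: the authors summarized and normalized the probe intensities with RMA, and used the affy package for quality analysis (versions not given in the sources used here). Their exclusion of probe sets without presence calls is not part of these values, and a level of 7.3 on at least 2 arrays stood in for it. Gene symbols came from the platform annotation, in which 19065 probe sets had 1 symbol, 1043 several and 2107 none, apart from 68 control probe sets left out. Those with more than 1 symbol, or without any, were tested and not named.

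All 10 arrays entered a group-means model in limma 3.58.1 (R 4.3.3), with 5 residual and 5.94 prior degrees of freedom and a prior SD of 0.144, for 7 comparisons. Each comparison's p-values received the Benjamini-Hochberg adjustment over its 10176 tested probe sets. The program was tested on simulated data. The smallest exact two-sided p that 2 arrays against 2 allow for a single gene is 0.333, so precision is limited by how few arrays there are.

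The members, the gene lists and the filter level were chosen with earlier results of these data known. Named members are those called in a comparison, at most 4 each way by size, the 2 largest differences each way where fewer than 2 were called against untreated cells, and always LAMP1, CTSD, CD63 and ATP6V1A, and of other lists at most 3 called genes per comparison. HEXA, GUSB, LAMP2, MCOLN1, CLN3, TFEB, ATP6V1D, ESRP1, DCN and KRT18 were given values beyond this rule, chosen after those values were seen. Motifs were searched on both strands of RefSeq promoters, and coordinates are of GRCh38.p14.

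The alternatives were no filter and a stricter one (8), median centring, cyclic loess, 1 probe set or the mean of the probe sets per gene, a trended and robust prior, the replicate number as a block, the 2 compared groups alone, adjustment over the 4 comparisons with untreated cells, a size threshold of 0.5 and leaving out each array. Illumina arrays of the same RNA were not analysed here.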

Additional observations from a re-analysis of the deposited data

Results flagged for a closer look

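Each result here is a difference between 2 times with HGF, tested directly between the times with limma. Between 6 h and 1 h the differences were 0.82 and 0.65 for ATP6V1C1 (202872_at and 202874_s_at) and 0.48 for ATP6V1G1. They were -0.77 for SMPD1, -0.63, -0.53 and -0.49 for GM2A (209727_at, 215891_s_at and 33646_g_at), -0.61 for SGSH (35626_at), -0.52 for NAGLU, -0.51 for HEXA, -0.50 and -0.47 for TPP1 (200742_s_at and 214196_s_at) and -0.44 for GUSB. The adjusted p of these 13 lay between 0.00671 and 0.0439.

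Between 24 h and 6 h the differences were 0.71 and 0.55 for SGSH (35626_at and 204293_at), 0.55 for SMPD1, 0.47 and 0.46 for TPP1 (200742_s_at and 214196_s_at), 0.45 for SCARB2, 0.44 for GM2A and 0.38 for LAMP2. They were -0.68 and -0.65 for ATP6V1C1 (202872_at and 202874_s_at) and -0.45 for GLA. The adjusted p of these 11 lay between 0.00424 and 0.0489. The 24 results were picked by these calls, and over all kept probe sets 18.3% and 19.5% were called in the same comparisons.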

How the results depend on the processing

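No difference named by the rule changed its sign in the alternatives where it was followed. Such differences were not followed with 1 probe set or the mean of the probe sets per gene, nor with the size threshold. Only median centring, cyclic loess and leaving out an array of a compared group could change a sign. The remaining alternatives leave each difference as it is. The counts of called members that moved by over 1.5 times are as follows. For 24 h against 6 h (11 called), 7 of 83 member probe sets were called without a filter, beside 9.08% of all probe sets. With a log2 difference of at least 0.5, 5 were called, beside 15.3% of all kept probe sets. With 1 probe set per gene 6 were called, and 7 with the mean of the probe sets of each gene. For 6 h against 1 h (13 called), 7 were called with 1 probe set per gene. The settings with 1 value per gene tested 40 member genes in place of 67 probe sets. Their counts can therefore not be set directly against 11 and 13. For 1 h against untreated cells (3 called), 1 was called with the 2 groups compared alone, beside 5.49% of all kept probe sets. With adjustment over the 4 comparisons with untreated cells 0 were called, beside 2.58% of all. For 6 h against untreated cells (1 called), 4 were called with the 2 groups alone, beside 18.3% of all kept probe sets. For transduced against untreated cells (0 called), 2 were called with adjustment over the 4 comparisons, both of SCARB2, beside 0.364% of all.

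With the replicate number as a block, 5 members were called at 1 h, CLN3 and MCOLN1 among them, and for 6 h against 1 h IDS was called beside the others. The other counts moved by less than 1.5 times. The deviations of arrays with the same number correlated between -0.14 and 0.46 and were over 0.1 in 8 of 10 pairs of groups. Since the labels do not say that a number marks a shared culture or day, and the numbers were taken to pair the samples only where every correlation was over 0.1, no block was used in the results above, and a shared effect of replicates was not excluded.

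Leaving out each array in turn gave from 0 to 8 called members at 1 h, 0 to 2 at 6 h, 0 to 0 at 24 h and 0 to 0 in transduced cells, each against untreated cells, and 0 to 20 for 6 h against 1 h, 1 to 14 for 24 h against 6 h and 0 to 0 for 24 h against 1 h. Of the named differences, 55 of the fits without an array lost the call, 2 gained it and 213 kept their side of the threshold. In the other alternatives 11 lost the call, 2 gained it and 188 kept their side. In both tallies, those that kept their side include differences named by size alone. These were not called to begin with and could not lose a call. Members not called in the results above but called under an alternative were SGSH and TPP1 at 6 h with the 2 groups alone, NPC2 for 6 h against 1 h with a trended and robust prior, and ARSA and NAGLU for 24 h against 6 h with cyclic loess. Without HGF 1 h replicate 2 they were GM2A, MAN2B1 and NAGLU at 1 h and ATP6AP1, ATP6V1D, CTSB and MAN2B1 for 6 h against 1 h, and without either 1 h array ATP6V1D and NAGLU for 24 h against 6 h. The causes were not tested. Median centring and cyclic loess moved the median of all kept probe sets by under 0.1, and under cyclic loess the members' median between 24 h and 1 h changed its sign (0.010, against -0.039).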

Other observations

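Probe sets of the same gene did not always run together, in cases chosen after their values were seen. IDS, the iduronate sulfatase, had 5 kept probe sets, and between 6 h and 1 h 212223_at differed by 0.45 (adjusted p = 0.0819) and 206342_x_at by -0.35 (adjusted p = 0.117), neither of them called. LAMP2 differed by 0.31 on 200821_at and by -0.34 on 203041_s_at in the same comparison (adjusted p = 0.261 and 0.0589), also not called. Which transcripts each probe set measures was not examined.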
